A study of Homo sapiens with 8 samples.

Results

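T-box genes encode transcription factors that share a DNA-binding domain, the T-box, and set the identity of organs and cell lineages in the embryo. In cells that do not use them they are classic targets of PRC2, the Polycomb complex that writes H3K27me3, a histone mark of silenced genes that often spreads over many kilobases around CpG-rich starts. Members sit in the genome partly as duplicated neighbours: TBX5 with TBX3, and TBX4 with TBX2. Here H3K27me3 peaks were described at the starts of 10 T-box genes (TBX1, TBX2, TBX3, TBX4, TBX5, TBX15, TBX18, TBX20, EOMES and TBR1), within 5 kb and within 50 kb of each start, and across an interval of 1.5 Mb on chromosome 12 around TBX5 and TBX3 (114300000 to 115800000, GRCh37). The starts were given to the nearest kilobase, so distances below that carry no meaning. Within 5 kb of the 10 starts lay 13 of the 104566 peaks of AC220 1, 9 of the 139642 of AC220 2, 15 of the 104980 of DMSO 1 and 10 of the 117556 of DMSO 2. The genes are known targets of the mark and were picked by name, with results of the same comparison in view. The interval was chosen by its covered shares, since it holds 5 kb windows covered more with DMSO than with AC220. Every value below is therefore a description and none was tested.

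The cells were MOLM14, a human acute myeloid leukaemia line with an internal tandem duplication in the kinase gene FLT3, labelled as human blood. They received AC220 (quizartinib), an inhibitor of FLT3, or its vehicle DMSO, for 24 hours, and the study asked whether FLT3 inhibition alters the mark. The series holds 8 samples: 2 H3K27me3 libraries with AC220, 2 with DMSO, and an input for each of the 4, not used here. Drosophila S2 cells had been spiked in ahead of lysis, per the labels. All are of 1 cell line, and no label says that libraries of a treatment came from separate cultures. The 4 lists give peak positions and not reads, so the depth behind each value is unknown, and a covered share says nothing on how much mark a cell carried.

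The libraries numbered 2 covered 2.59 times (AC220) and 2.55 times (DMSO) the length of those numbered 1. Their list lengths differ more between numbers than between treatments, so each AC220 library is set beside the DMSO library of its own number. Over the whole genome the covered length was 17.2% lower with AC220 in number 1 and 15.9% lower in number 2. The covered share is the percentage of the bases of a stretch that lie inside any peak of a library.

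The promoters of the genes on which the results turn are shown first. RefSeq promoters (GRCh38.p14, from 250 bases before to 50 after a start) were found for 7 of the 10 genes, in 8 entries; TBX2, TBX3 and TBX15 had none. With the lists as deposited, TBX18 had the most negative and TBX1 the highest difference within 50 kb, an order that depends on the processing, and TBX5 gives the chromosome 12 interval its name. CpG dinucleotides (CG, which reads the same on both strands) are in capitals, as CpG-rich DNA is where PRC2 is known to settle.
TBX18 (chr6:84764549-84764848, minus strand, GRCh38.p14): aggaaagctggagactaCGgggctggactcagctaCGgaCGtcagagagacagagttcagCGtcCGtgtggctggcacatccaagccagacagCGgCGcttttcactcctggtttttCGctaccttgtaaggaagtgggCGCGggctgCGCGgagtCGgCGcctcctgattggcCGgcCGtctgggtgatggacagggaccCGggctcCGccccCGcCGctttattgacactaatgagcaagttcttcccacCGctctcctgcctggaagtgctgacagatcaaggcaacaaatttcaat
TBX1 (chr22:19756453-19756752, plus strand, GRCh38.p14): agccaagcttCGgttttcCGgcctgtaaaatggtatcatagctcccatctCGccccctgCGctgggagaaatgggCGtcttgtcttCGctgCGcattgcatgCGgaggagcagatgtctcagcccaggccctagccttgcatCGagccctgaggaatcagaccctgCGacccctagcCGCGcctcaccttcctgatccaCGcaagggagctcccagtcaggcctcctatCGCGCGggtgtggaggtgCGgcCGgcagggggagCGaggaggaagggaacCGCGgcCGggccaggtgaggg
TBX5, entry further into the gene (chr12:114407963-114408262, minus strand, GRCh38.p14): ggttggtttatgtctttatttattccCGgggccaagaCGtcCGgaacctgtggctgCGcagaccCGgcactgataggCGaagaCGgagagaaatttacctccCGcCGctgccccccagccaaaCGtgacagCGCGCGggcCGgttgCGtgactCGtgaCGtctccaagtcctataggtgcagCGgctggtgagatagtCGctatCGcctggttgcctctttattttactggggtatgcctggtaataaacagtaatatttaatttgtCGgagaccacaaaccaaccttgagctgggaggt
TBX5, outer entry (chr12:114408393-114408692, minus strand, GRCh38.p14): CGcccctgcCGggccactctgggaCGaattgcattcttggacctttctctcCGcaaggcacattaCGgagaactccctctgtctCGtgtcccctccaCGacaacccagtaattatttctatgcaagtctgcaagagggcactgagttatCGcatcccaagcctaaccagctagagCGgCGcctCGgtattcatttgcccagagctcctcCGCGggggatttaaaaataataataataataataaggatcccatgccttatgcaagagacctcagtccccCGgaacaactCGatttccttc
TBX18 holds 21 CpGs and TBX1 22 in 300 bases, and the TBX5 entries hold 21 and 15. The median of 35116 RefSeq promoters is 14, and 96.0% of them hold at least 1. In 7 of the 8 T-box entries the number lay above that median, as it did in 48.9% of all promoters. TBX20 had the most, with 38, a number that 9.91% of promoters reach. TBR1 had the fewest, with 4 CpGs and a GC content of 43.3%, against a median of 58.7% over all promoters. These coordinates are of another build than the peaks and are not compared with them.

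A peak lay within 5 kb of the start of 9 of the 10 genes in every library. Among all 10 kb windows of the genome, 19.6% held a peak in all 4 libraries, and in each library the median window held none. The mean covered share within 5 kb was 66.3% in AC220 1 and 81.5% in AC220 2, against 70.6% in DMSO 1 and 81.5% in DMSO 2. The corresponding genome means were 6.32% and 16.3% with AC220 and 7.63% and 19.4% with DMSO. The T-box starts were thus far above the genome mean under both treatments. The gene without a peak was TBX15.

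Within 5 kb of the starts, 3 genes (TBX18, TBX20 and TBR1) had a lower covered share with AC220 in both numbers. Of all 10 kb windows 10.9% were lower in both numbers, and of those with a peak in all 4 libraries 37.3%. None was higher in both, against 3.45% of all windows and 12.2% of those with a peak in all 4. TBX4 and TBX5 were at 100% in every library, so coverage there could not show a difference, and the median difference over the 10 genes was -0.77 percentage points in number 1 and 0 in number 2. Within 50 kb, 4 genes were lower in both numbers (TBX3, TBX5, TBX15 and TBX18), 2 were higher in both (TBX1 and TBX4) and 4 differed in direction between numbers. Of all 100 kb windows 30% were lower in both numbers and 6.9% higher, and of those with a peak in all 4 libraries, as all 10 genes had, 56.7% were lower and 12.7% higher. The count of lower genes thus lay near the first background and below the second.

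The mean over the 10 genes within 50 kb was 31.7% in AC220 1 and 51.8% in AC220 2, against 34.4% in DMSO 1 and 55.3% in DMSO 2. The differences, -2.73 and -3.47 percentage points, were small beside the gap between the numbers of either treatment. The median differences were 0.124 points in number 1, where 5 genes were lower, and -2.61 points in number 2, where 7 were. Coverage declined with distance from the start in all 4 libraries. From 20 to 50 kb on either side it averaged 23.3% and 44.0% with AC220 and 26.1% and 48.4% with DMSO, 10.7% and 9.12% lower with AC220 in numbers 1 and 2. In the innermost 5 kb it was 6.05% and 0.0417% lower, from 5 to 10 kb 6.99% and 1.31% lower, and from 10 to 20 kb 3.92% and 6.39% lower. The relative difference grew with each ring outward in number 2, and had no steady order in number 1. In every ring it was smaller than over the whole genome, which was 17.2% and 15.9% lower with AC220. In number 2 most starts had little room to differ, since the median share within 5 kb was 100% in AC220 2 and 99.985% in DMSO 2. Nothing is therefore read from the order of its rings or from their small differences near the starts. The spans of TBX2 and TBX4 overlap, so these means count some bases more than once.

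**Figure D1:**
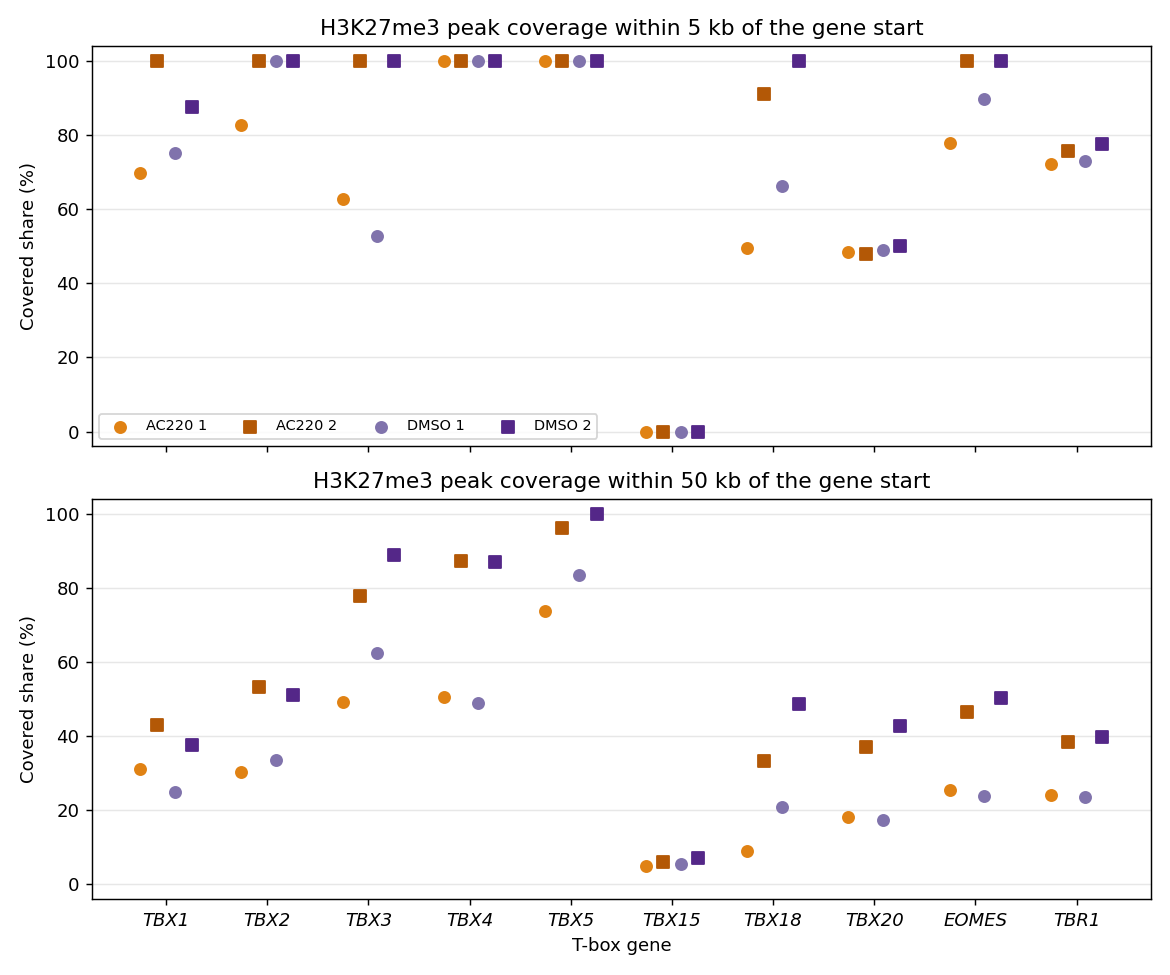
Covered share (%) within 5 kb (top) and 50 kb (bottom) of the starts of 10 T-box genes, 1 point per library, circles for number 1 and squares for number 2. TBX4 and TBX5 are at 100% in all 4 libraries near the start and TBX15 at 0, and within 50 kb the squares lie above the circles for every gene.

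TBX5, a regulator of heart and forelimb formation whose loss of function causes Holt-Oram syndrome, lay in the broadest domain of the group (chromosome 12, start at 114846 kb, band 12q24.21). A single peak covered its start in every library. It was 32.9 kb wide in AC220 1 and 89.2 kb in AC220 2, against 39.7 kb in DMSO 1 and 152 kb in DMSO 2. The AC220 peak was the narrower in both numbers. These were the 48th and 35th widest peaks of the AC220 lists and the 48th and 22nd widest of the DMSO lists. Within 50 kb of the start the covered share was 73.8% in AC220 1 and 96.1% in AC220 2, against 83.5% in DMSO 1 and 100% in DMSO 2. The treatments overlapped, since AC220 2 lay above DMSO 1. The 152 kb peak of DMSO 2 was called as 9 peaks in AC220 2, which covered 89.2% of it. In number 1 both treatments had more pieces there: 20 peaks in AC220 1, covering 61.0%, and 18 in DMSO 1, covering 77.7%. The 89.2 kb peak of AC220 2 lay wholly inside DMSO 2 peaks. It was covered over 81.4% in AC220 1 and 90.5% in DMSO 1, so that DMSO 1 covered more of it than AC220 1 although the stretch was taken from an AC220 list.

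TBX3, a repressor that acts in limb, mammary gland and cardiac conduction tissue, starts 276 kb to the right of TBX5 (115122 kb). Its widest peak measured 25.6 kb in AC220 1 and 34.6 kb in AC220 2, against 28.4 kb in DMSO 1 and 41.7 kb in DMSO 2. Within 50 kb the covered share was 49.3% and 77.7% with AC220, against 62.4% and 88.9% with DMSO. The AC220 library was lower by 13.1 and 11.2 percentage points, and the treatments overlapped. The gap lay mostly to the left of the start in number 1 and to the right in number 2. On the left coverage was 42.4% and 85.2% with AC220, against 64.8% and 85.3% with DMSO. On the right it was 56.2% and 70.1% with AC220, against 60.0% and 92.5% with DMSO. Within 5 kb the order differed: AC220 1 was at 62.8% and DMSO 1 at 52.7%, and both libraries numbered 2 were at 100%. In DMSO 1 a gap between peaks lay at the start.

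TBX4, which acts in hindlimb and lung development, and TBX2, a growth-regulating repressor and the closest relative of TBX3, form the corresponding pair on chromosome 17 (starts at 59534 and 59477 kb, band 17q23.2). Within 50 kb of TBX4 the covered share was 50.6% and 87.2% with AC220, against 48.8% and 87.0% with DMSO. Those libraries were ordered by number and hardly by treatment. Around TBX2 it was 30.3% and 53.2% with AC220, against 33.6% and 51.0% with DMSO, in opposite directions in the 2 numbers. The stretch between both starts, 57 kb long, was covered over 59.8% and 94.2% with AC220 and over 61.9% and 92.2% with DMSO. Between TBX5 and TBX3 the same measure was 36.3% and 75.0% with AC220 and 55.1% and 89.6% with DMSO. The difference between treatments was thus -18.8 and -14.6 percentage points on chromosome 12 and -2.15 and 2.05 on chromosome 17. Only the chromosome 12 stretch lies in an interval chosen for windows covered more with DMSO, so nothing is read from this contrast. By ratio that stretch was 34.2% and 16.3% lower with AC220, against 17.2% and 15.9% over the whole genome. In number 2 the chromosome 17 stretch was also nearly full under both treatments. Among the widest peaks at the T-box starts, that of TBX2 had the strongest q in DMSO 2, where 21 peaks of the list ranked above it. The same held in AC220 2, where it ranked 110th, and in DMSO 1, where it ranked 112th. In AC220 1 the peak at TBX5 was stronger, ranked 142nd against 229th.

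TBX1, the pharyngeal arch gene of the DiGeorge deletion, was the member with the highest difference in the lists as deposited (chromosome 22, 19744 kb, band 22q11.21). TBX4 lay above it with -log10 q of at least 5 (1.44 points against 1.02, means of both numbers) and with all lists at equal length (9.65 against 9.47). The cut-off of 5 drops the widest start peaks of AC220 1 and DMSO 1, at 3.87 and 4.29 for TBX4 and 4.70 and 3.36 for TBX1. Within 50 kb of TBX1 the covered share was 31.1% in AC220 1 and 42.9% in AC220 2, against 24.96% in DMSO 1 and 37.5% in DMSO 2. The AC220 library was higher in both numbers, by 6.13 and 5.38 points, although the treatments overlapped. Most of the coverage lay to the left of the start, where it was 56.8% and 66.9% with AC220 and 41.5% and 60.9% with DMSO. To the right it was 5.42% and 18.9% with AC220 and 8.47% and 14.2% with DMSO.

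TBX18, a gene of the epicardium and the sinus node, had the most negative difference in the lists as deposited, -13.53 points as the mean of both numbers (chromosome 6, 85474 kb, band 6q14.3). TBX3 was more negative than TBX18 with -log10 q of at least 2 (-15.60 against -7.73) and of at least 5 (-16.87 against -8.97), with DMSO lists trimmed to AC220 length (-11.97 against -9.27) and with all lists at equal length (-12.50 against -4.53). The cut-off of 5 drops the widest start peaks of AC220 1 and DMSO 1, at 4.17 and 4.63 for TBX3 and 2.42 and 2.60 for TBX18. It also drops that of TBX18 in AC220 2, at 4.22. Within 50 kb of TBX18 the covered share was 9.09% in AC220 1 and 33.4% in AC220 2, against 20.8% in DMSO 1 and 48.8% in DMSO 2. This is 56.3% lower in number 1 and 31.5% lower in number 2, more than the genome in both. The side to the left was covered over 5.79% and 30.5% with AC220 and over 20.3% and 50.7% with DMSO, and the right side over 12.4% and 36.3% with AC220 and over 21.3% and 46.8% with DMSO. The lower coverage was thus found on both sides. TBX18 also had the weakest folds among the members: the widest peak at its start had an authors' fold of 3.04 in AC220 1 and 2.70 in AC220 2, and of 3.49 in DMSO 1 and 3.23 in DMSO 2, each relative to the background of its own library.

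TBX20, a regulator of heart muscle and valves, had its domain on one side (chromosome 7, 35294 kb, band 7p14.2). The left edge of its peak lay within 0.21 kb in all 4 libraries, at the start to within the precision of the annotation. RefSeq places the gene on the minus strand, so the peak lay upstream. To the left, over the gene body, the covered share within 50 kb was 0 in both AC220 libraries and 0 and 1.32% in the DMSO libraries. The right edge varied, at 10.3 kb and 16.2 kb from the start with AC220 and at 8.09 kb and 19.4 kb with DMSO. Within 5 kb the covered share was 48.3% and 48.0% with AC220, against 49.0% and 50.1% with DMSO. This is the only one of the 20 spans examined (10 genes at 2 flanks) in which the treatments did not overlap, and they were separated by less than 1 percentage point. Both AC220 libraries lay below both DMSO libraries in 1.34% of all 10 kb windows and in 0.678% of all 100 kb windows.

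The T-brain subfamily members EOMES and TBR1 each differed in direction between the numbers within 50 kb. EOMES, which acts in mesendoderm and in cytotoxic lymphocytes, starts at 27764 kb of chromosome 3 (band 3p24.1). Within 50 kb it was covered over 25.6% and 46.4% with AC220, against 23.8% and 50.3% with DMSO. Within 5 kb it was covered over 77.7% in AC220 1 against 89.7% in DMSO 1, and fully in both libraries numbered 2. TBR1, a gene of deep-layer cortical neurons, starts at 162273 kb of chromosome 2 (band 2q24.2). It was covered over 24.2% and 38.3% with AC220, against 23.6% and 39.7% with DMSO. Within 50 kb AC220 was higher in number 1 and lower in number 2 for both genes. With all 4 lists cut to equal length, TBR1 stood at 24.2% in AC220 1 against 22.2% in DMSO 1. In number 2 it stood at 22.7% with AC220 against 39.7% with DMSO, so the numbers still differed in direction. The TBR1 peak shared a left edge in all 4 libraries, at -2.22 kb and -2.56 kb from the start with AC220 and at -2.31 kb and -2.75 kb with DMSO. Its right edge, downstream of the start on the plus strand, lay at 6.48 kb and 20.1 kb with AC220 and at 12.5 kb and 33.1 kb with DMSO. TBR1 therefore had a fixed edge and a variable one, as did TBX20, and its AC220 peak was the narrower in both numbers: 8.70 kb and 22.7 kb with AC220, against 14.8 kb and 35.9 kb with DMSO.

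TBX15, a gene of skeletal and muscle development, stood apart (chromosome 1, 119532 kb, band 1p12). No library had a peak within 5 kb of its start. The nearest peak was 44.6 kb away in AC220 1 and 12.9 kb in AC220 2, against 44.6 kb in DMSO 1 and 13.3 kb in DMSO 2. Within 50 kb its covered share was 5.03% and 6.12% with AC220, against 5.39% and 7.09% with DMSO, all of it to the left.

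**Figure D2:**
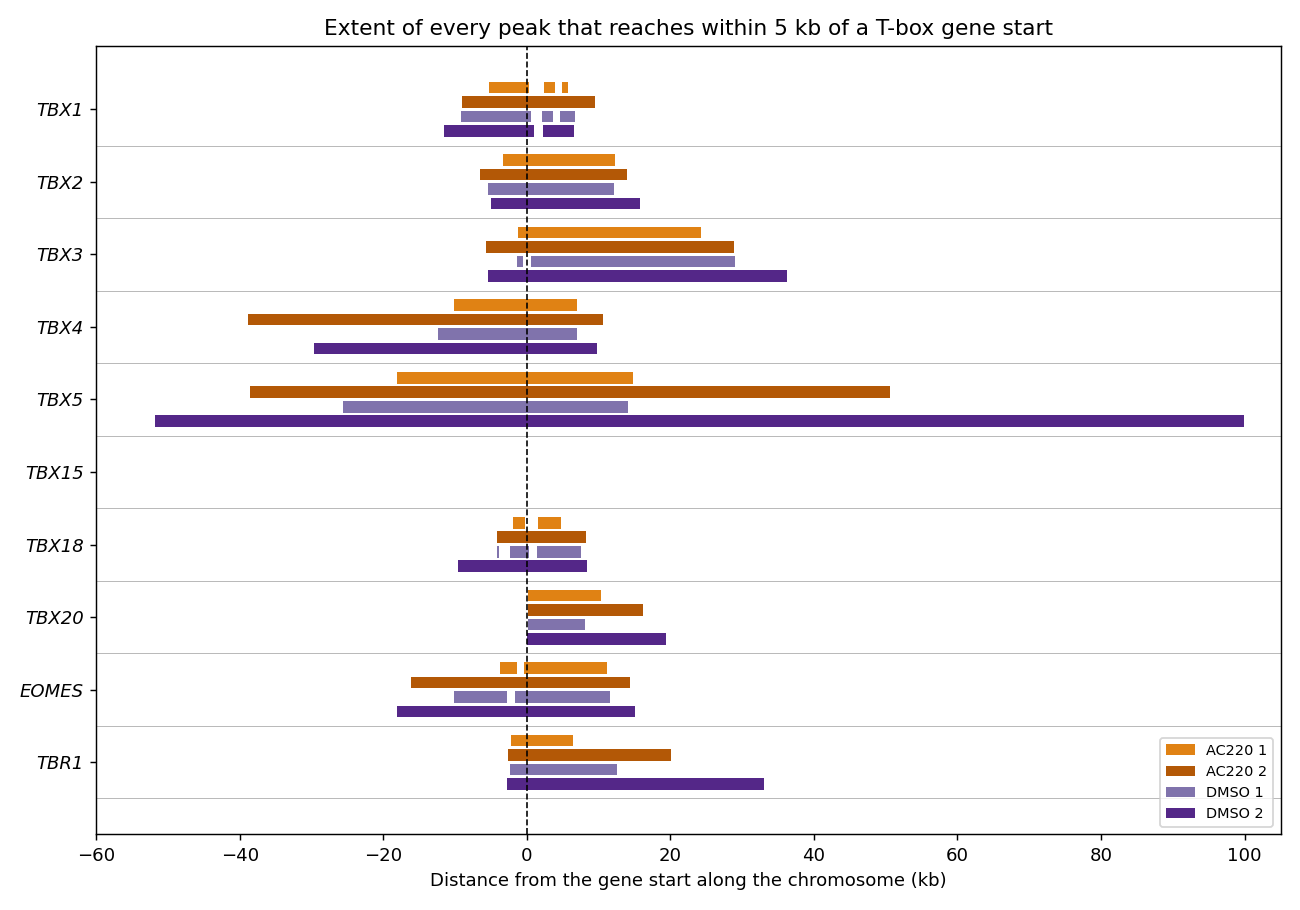
Extent of every peak that reaches within 5 kb of a T-box gene start, as distance from the start along the chromosome (kb), with AC220 1, AC220 2, DMSO 1 and DMSO 2 from top to bottom for each gene. The left edges at TBX20 and TBR1 coincide in all 4 libraries, TBX5 has the widest peaks, and TBX15 has none.

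The interval of 1.5 Mb around TBX5 and TBX3 was covered over 23.2% in AC220 1 and 51.1% in AC220 2, against 37.4% in DMSO 1 and 66.3% in DMSO 2. By number the AC220 library was lower by 14.3 and 15.2 percentage points, which is 38.1% and 22.9% lower. The means were 37.2% ± 19.8 with AC220 and 51.9% ± 20.4 with DMSO (SD, n = 2 each). The difference of -14.72 points was thus smaller than the spread between the numbers. The within-number differences had an SD of 0.648 points (n = 2), but the labels do not state that the numbers pair the libraries. Parts of the interval were less alike: -21.03 and -8.92 points from 114400000 to the TBX5 start, and -10.06 and -21.77 points beyond the TBX3 start. Of 1796 windows of the interval's length with a peak in all 4 libraries, 70.9% were lower with AC220 in both numbers, and 0% by at least as many points in each number as the interval. The interval was chosen for its lower windows, so nothing is read from that. Difference in points also depends on how much is covered: among 2041 windows of this length the interval ranked 73rd in AC220 1 and 40th in AC220 2, and 21st in DMSO 1 and 11th in DMSO 2.

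The lower coverage went with fewer broad peaks, though hardly so in number 2, and in number 2 with more pieces. Peaks of at least 10 kb in the interval numbered 5 and 22 with AC220, against 10 and 24 with DMSO. In all there were 132 peaks in AC220 1 and 143 in AC220 2, against 166 in DMSO 1 and 95 in DMSO 2. The median peak was 1076 bp and 2149 bp wide with AC220, against 1567 bp and 3928 bp with DMSO. The whole lists differed in the same way, with medians of 996 bp and 1612 bp with AC220, against 1211 bp and 2321 bp with DMSO. They held 104566 peaks in AC220 1 against 104980 in DMSO 1, and 139642 in AC220 2 against 117556 in DMSO 2. Windows of 5 kb that were fully covered numbered 22 and 76 with AC220 and 37 and 138 with DMSO, and windows with no peak 146 and 68 with AC220 and 96 and 40 with DMSO.

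Along the interval the mark began sharply. The first 100 kb held no peak in any library, and the first peak started 104.8 kb into the interval in AC220 1 and 104.7 kb in AC220 2, against 105.7 kb in DMSO 1 and 104.8 kb in DMSO 2. This edge lay about 441 kb to the left of the TBX5 start. In the GRCh38.p14 gene table the protein-coding neighbour on that side of TBX5 is RBM19, and that on the other side of TBX3 is MED13L. From 114400000, the end of the empty stretch, to the TBX5 start coverage was 43.9% and 82.8% with AC220 and 65.0% and 91.7% with DMSO. From the TBX3 start to the end of the interval, 678 kb, it was 7.56% and 28.1% with AC220 and 17.6% and 49.9% with DMSO. By ratio the difference was widest in this sparsely covered part, 57.1% and 43.6% lower with AC220, against 32.4% and 9.73% on the left and 34.2% and 16.3% between the genes. In points the order was not the same in both numbers: number 1 differed most on the left (-21.03 points) and number 2 most beyond TBX3 (-21.77 points).

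A core was covered whatever the treatment. In 23 of 300 windows of 5 kb at least 90% was covered in all 4 libraries, in 9 separate runs. A genome share is at hand only for a stricter measure: 0.196% of all 10 kb windows were fully covered in all 4 libraries. The longest run, 30 kb, spanned the TBX5 start (114830001 to 114860000). Next were runs of 20 kb each, at 29 to 49 kb to the right of the TBX5 start (114875001 to 114895000) and at 3 to 23 kb to the right of the TBX3 start (115125001 to 115145000). The longest stretches with no peak in any library were the first 100 kb, 15 kb from 115195001 to 115210000, and 2 of 10 kb each, from 115235001 to 115245000 and from 115465001 to 115475000. The last 3 began 73, 113 and 343 kb to the right of the TBX3 start. Bases covered in all 4 libraries came to 296 kb. Bases covered in both AC220 libraries and neither DMSO library came to 0.949 kb, and those covered in both DMSO libraries and neither AC220 library to 42.9 kb. The pairs that mix treatment and number alone covered 3.60 kb (AC220 1 with DMSO 2) and 5.03 kb (AC220 2 with DMSO 1). No genome share stands beside these lengths. The AC220 lists were shorter over the whole genome, and the interval was chosen for windows covered more with DMSO. Nothing is therefore read from the lengths.

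**Figure D3:**
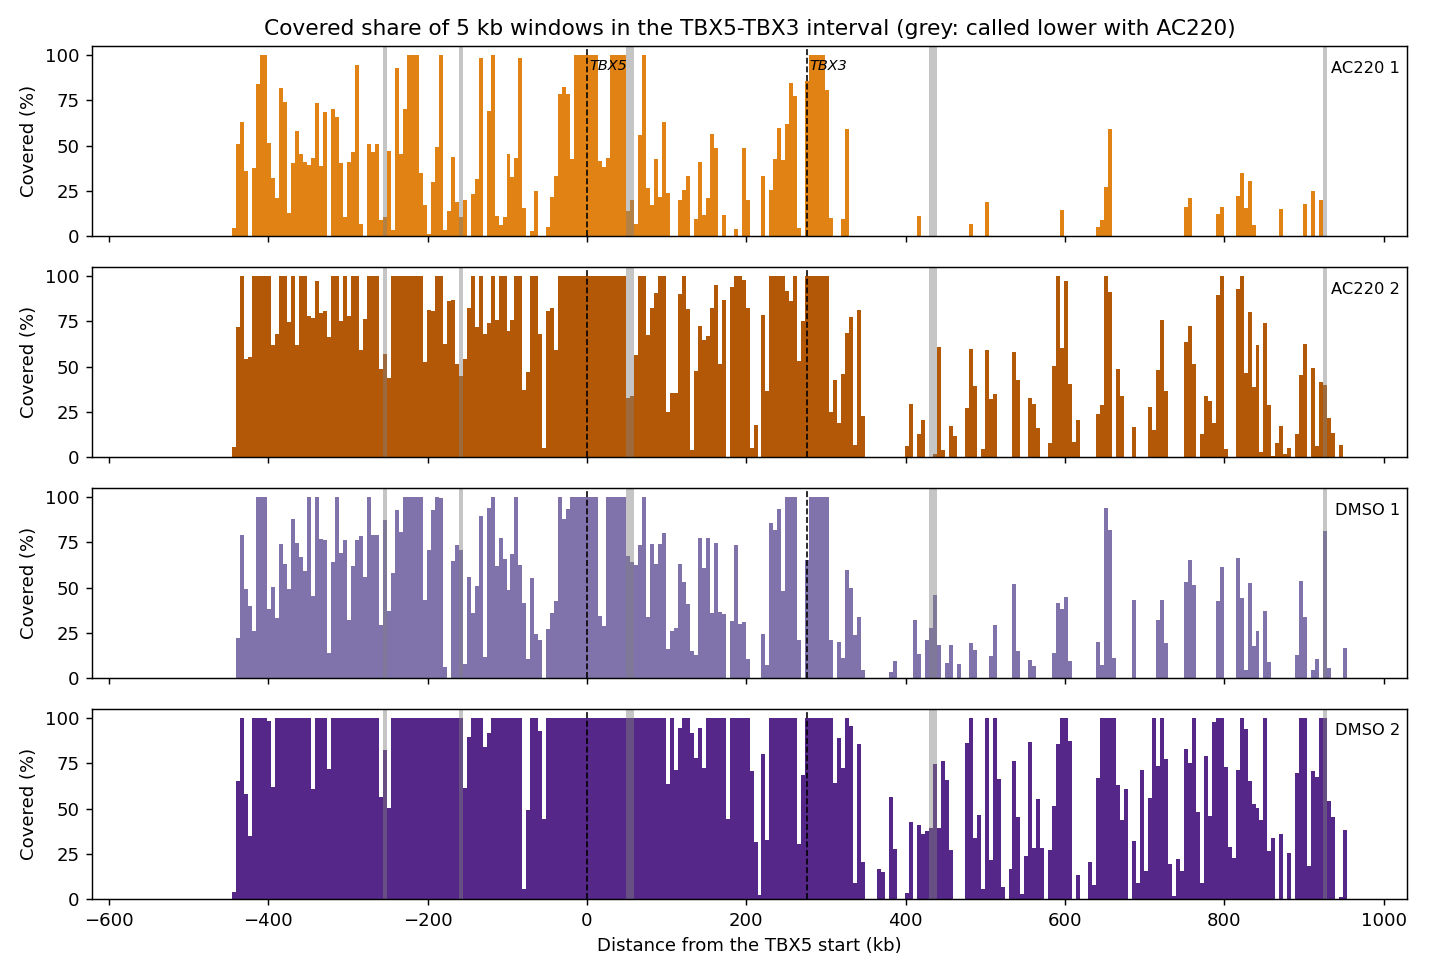
Covered share (%) of each 5 kb window across the interval, by distance from the TBX5 start (kb), for AC220 1, AC220 2, DMSO 1 and DMSO 2; dashed lines mark the TBX5 and TBX3 starts and grey bands the windows called lower with AC220. All 4 libraries are at 100% over the TBX5 start and empty at the left end, and the sparse part to the right of TBX3 is emptiest in AC220 1.

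Windows of 5 kb were then called by separation: for a lower call, both AC220 shares had to lie 25 points or more below both DMSO shares, and for a higher call the same distance above them. In the interval 7 of 300 windows (2.33%) were called lower, against 0.0883% of 607271 windows of the genome, and 0 were called higher, against 0.0171% of the genome. The interval was chosen with these calls known. Without the size requirement, 98 windows (32.7%) were lower with AC220 in both numbers and 3 were higher, against 6.9% and 2.47% of genome windows. A further 55 were equal in both numbers: 34 had no peak in any library and 21 were full in all 4. With at least 25 points required within each number, 21 windows were lower and 0 higher, against 0.724% and 0.105% of genome windows. All these genome shares include windows without a peak, whereas the interval is densely covered. Of 10 kb windows of the genome with a peak in all 4 libraries, 37.3% were lower in both numbers and 12.2% higher. No excess of lower windows is therefore read from the 32.7%. The called windows did not lie at the starts, but a lower call was not possible there. In the windows that hold the TBX5 and TBX3 starts AC220 2 was already at 100%, so nothing is read from this. A pair of called windows adjoined the right end of the core run beyond TBX5, 49 and 54 kb from its start. The first of these (114895001 to 114900000) was covered over 13.8% in AC220 1 and 32.9% in AC220 2, against 67.7% in DMSO 1 and 100% in DMSO 2. A second pair lay 153 and 158 kb to the right of the TBX3 start, the widest separated of which (115280001 to 115285000) was covered over 0 and 1.96% with AC220, against 45.8% and 74.6% with DMSO.

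The other called windows stood alone. That at 115770001 to 115775000 was covered over 0 and 40.1% with AC220, against 80.9% and 100% with DMSO. That at 114685001 to 114690000 was covered over 10.8% and 45% with AC220, against 70.7% and 100% with DMSO. The window nearest inside the threshold (114590001 to 114595000) was covered over 10.9% and 57.0% with AC220, against 87.2% and 82.3% with DMSO, a separation of 25.3 points. The window nearest outside it (114495001 to 114500000) was at 39.1% and 77.9% with AC220, against 100% and 100% with DMSO, a separation of 22.1 points.

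Because the AC220 lists were shorter as a whole, each DMSO list was also cut to the covered length of the AC220 list of its number, its strongest peaks being kept. This step removes DMSO coverage alone, so genes already higher with AC220 could not change direction. TBX3, TBX5 and TBX18 were still lower with AC220 in both numbers within 50 kb, and TBX1 and TBX4 higher, while TBX15 no longer had 1 direction. Around TBX18 the covered share was then 9.09% and 33.4% with AC220, against 14.8% and 46.2% with DMSO. The interval was covered over 23.2% and 51.1% with AC220, against 34.3% and 61.5% with DMSO, 11.1 and 10.3 points lower. With all 4 lists at equal length these 5 genes kept their directions, and the interval stood at 23.2% and 30.2% with AC220, against 34.3% and 44.7% with DMSO.

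**Figure D4:**
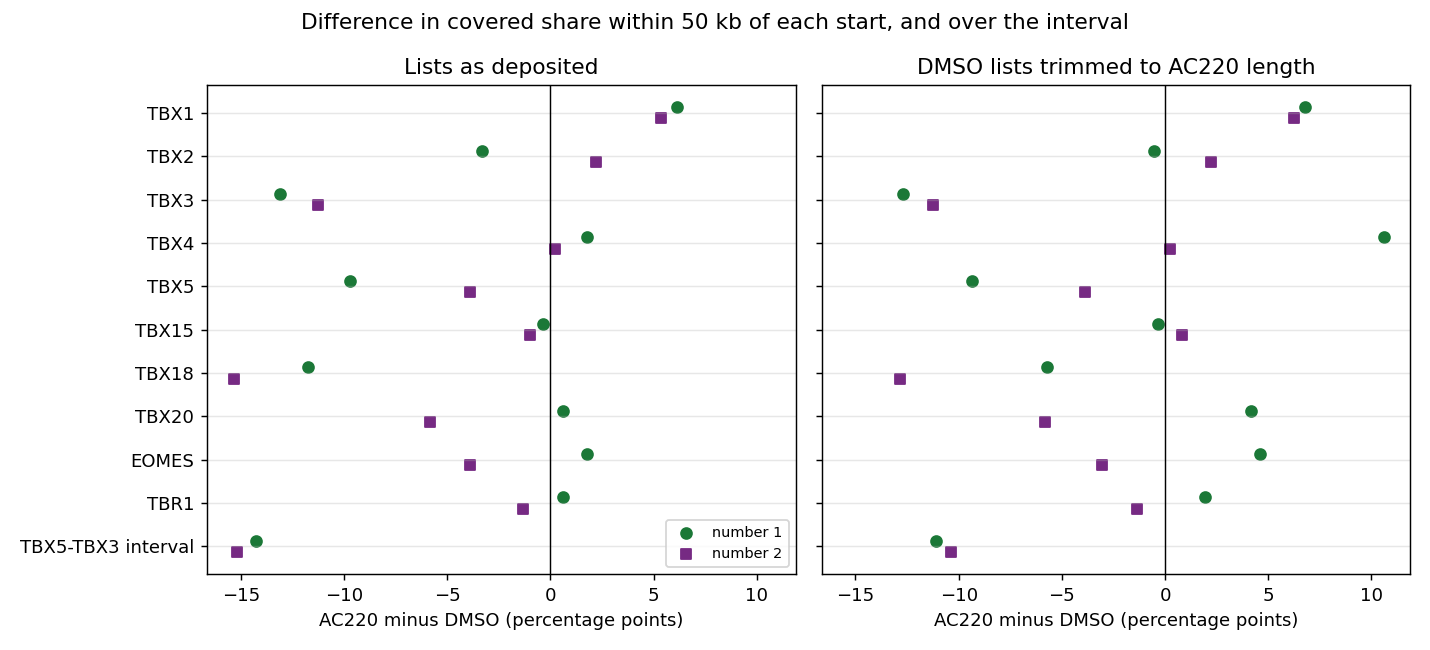
AC220 minus DMSO difference in covered share (percentage points) within 50 kb of each start and over the interval, for number 1 (circles) and number 2 (squares), with the lists as deposited (left) and with DMSO lists trimmed to AC220 length (right). TBX3, TBX5, TBX18 and the interval lie left of 0 in both numbers in both panels, and TBX1 and TBX4 right of it.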

How the data were processed

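H3K27me3 peak lists of 4 MOLM14 libraries, 2 per treatment, were analysed; the genes and interval were chosen with earlier results of these data known. Per the submitters' processing notes the tools were BWA 0.7.10-r789 and MACS2 2.1. The authors deposited 1 broad peak list per library. Its columns are, in the order of that format, positions, a score (10 times the -log10 q, rounded down, per the deposited values), a fold ratio over the library's own background, and -log10 p and q. Each fold, p-value and q-value is the authors' own and was used within its list only. Neither the build nor any use of input or Drosophila reads in the calls is stated in these sources. The build was taken as GRCh37 from the contigs and peak ends, with chromosome lengths and bands from circlize 0.4.16 (R 4.3.3).

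Covered shares were computed in Python (3.11.15; pandas 2.3.3, numpy 2.4.6) on the 24 main chromosomes, genome windows on the autosomes and X, and checked on simulated lists. Values are given per library, with no test. All 10 genes are named, and in the interval every called window or its place, the 3 longest runs covered over at least 90% in all libraries and the 3 longest with no peak (4, for a tie). Other T-box genes (TBXT, TBX6, TBX10, TBX19, TBX21, TBX22 and MGA) were not analysed here. Alternatives were peak thresholds, list lengths, joined gaps, flanks, window rules and single libraries left out. Figures were drawn with matplotlib 3.10.9.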

Additional observations from a re-analysis of the deposited data

How the results depend on the processing

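Values are AC220 minus DMSO in percentage points, averaged over numbers, unless they are counts; the cause of a change was not tested. As deposited, the mean over the genes was -2.15 within 5 kb and -3.10 within 50 kb, and the interval -14.72. With peaks of -log10 q of at least 2, the genes stood at -4.82 within 5 kb and -4.94 within 50 kb, the interval at -12.68, TBX4 at -3.08 (0.998 as deposited), TBX5 at -14.57 (-6.80), TBX18 at -7.73 (-13.53) and TBX1 at 2.03 (5.75). With at least 5, which few peaks of number 1 reach, they stood at -9.57 within 5 kb, -4.65 within 50 kb and -2.98 for the interval, with 1 gene lower in both numbers and 0 windows called lower, and TBR1 at -6.58 (-0.35). With DMSO lists trimmed to AC220 length, the genes within 50 kb were at -1.46, the interval at -10.73, TBX2 at 0.849, TBX15 at 0.239, EOMES at 0.766 and TBR1 at 0.303. With all lists at equal length, the genes were at -1.93, the interval at -12.80, TBX2 at 4.12, EOMES at 0.975, TBR1 at -7.50, TBX20 at -8.41 (-2.62 as deposited), TBX18 at -4.53, TBX4 at 9.65 and TBX1 at 9.47, and 19 windows were called lower. Joining gaps under 1 kb brought TBR1 to 0.544. Flanks of 20 and 100 kb in place of 50 kb gave -2.35 and -4.50, and 7 genes were lower in both numbers within 100 kb. Counting windows covered over at least 50% gave -16.33 for the interval. Separations of at least 10 and 50 points called 20 and 0 windows lower.

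The numbers are not stated to pair the libraries. With the replicate number as a block (25 points within each number), 21 windows were lower and 0 higher. Leaving out a library unbalances the numbers, so these ranges follow the list lengths: -9.73 to 5.43 for the genes within 5 kb, -13.53 to 7.33 within 50 kb, -29.17 to -0.27 for the interval, 7 to 77 windows lower, 0 to 2 higher, and 5 to 7 genes lower in the numbers still complete. Of the differences, the higher ones came without AC220 1 or DMSO 2, and the lower ones, with the 77 windows, without AC220 2 or DMSO 1. Within 50 kb the ranges were -0.53 to 12.03 for TBX1, -11.97 to 10.88 for TBX2, -26.36 to 2.03 for TBX3, -18.12 to 20.11 for TBX4, -17.97 to 4.36 for TBX5, -1.52 to 0.19 for TBX15, -27.50 to 0.44 for TBX18, -15.25 to 10.02 for TBX20, -14.28 to 12.18 for EOMES and -8.40 to 7.70 for TBR1.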
